A study of Saccharomyces cerevisiae with 12 samples.

Results

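The 10 genes CTP1, DIC1, ODC1, ODC2, YHM2, AGC1, GGC1, PET9, MIR1 and FLX1 encode carriers that move metabolites across the inner membrane of yeast mitochondria. They were found by symbol in the annotation of the array's probe sets, each through 1 probe set that belongs to no other gene, and are 10 of the 5656 genes with such a probe set. Total RNA from Saccharomyces cerevisiae grown in chemostats had been hybridised to 12 single-channel Affymetrix arrays, 3 for each of 4 groups. The tested strain was CEN.PK540-3A, MATa with the LEU3 gene interrupted as leu3(41,2621)::loxP-Kan-loxP, and the reference was CEN.PK113-7D, MATa LEU3. LEU3 encodes a transcription factor of leucine and branched-chain amino acid synthesis. Each strain was grown under nitrogen limitation with glucose as the carbon source and under carbon limitation with ethanol as the carbon source. The chemostats were held at 30 °C and pH 5.0, diluted at 0.1 per h. The nitrogen-limited feed held 1.0 g/l ammonium sulfate and 53 g/l glucose for the deletion strain or 59 g/l for the reference, set to leave 17 g/l glucose. The carbon-limited feed held ammonium sulfate at 5.0 g/l and ethanol at 6.0 g/l. Carbon source and limiting nutrient change together, so their effects cannot be told apart. The labels name a single deletion strain, and do not say whether the 3 arrays of a group came from separate cultures. The p-values therefore measure only the spread between these arrays, which may be technical.

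The inner membrane is closed to most metabolites, and proteins of the mitochondrial carrier family exchange a solute on one side for a solute on the other. Citrate, 2-oxoglutarate, malate, succinate and aspartate cross by such exchange. It ties the citric acid cycle in the matrix to glutamate and lysine synthesis, gluconeogenesis and redox shuttles. Other members bring in ADP and phosphate for ATP synthesis, or supply the matrix with nucleotides and flavin cofactor. On ethanol, yeast respires and makes its sugars from intermediates that leave the mitochondria, whereas on excess glucose it ferments and represses many genes of respiration.

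LEU3 signal was 0.3 to 0.6 on the 6 deletion arrays, against 96.3 to 110.4 on the nitrogen-limited and 59.9 to 76.7 on the carbon-limited reference arrays, which checks the strain labels. ADH2, an alcohol dehydrogenase used for growth on ethanol, read 18.7 to 27.0 on nitrogen-limited and 4196.4 to 8226.7 on carbon-limited arrays. Actin's 3'/5' ratio, the signal of its 3' probe set over that of its 5' one, moved with the strain and rises when labelled transcripts are short. It was 1.54 to 1.91 on the deletion arrays and 2.45 to 3.29 on the nitrogen-limited reference arrays. The carbon-limited reference arrays had 3.31, 9.27 and 13.98, so the ratio of arrays 2 and 3 stood apart. The same ratio for SPT15 overlapped between strains under nitrogen limitation, at 3.31 to 4.09 in the deletion strain and 3.42 to 3.68 in the reference. Under carbon limitation it was 2.56 to 2.93 in the deletion strain and 3.64, 8.08 and 10.05 on reference arrays 1, 2 and 3. ThrX-3, a bacterial control transcript, gave 3094.8 on array 2 and 2747.7 on array 3 of the nitrogen-limited reference, with 1.6 or less elsewhere. The summed signal of 4 alpha-cell genes was 138.4 to 203.3 in the nitrogen-limited deletion arrays, 435.9 to 528.0 in the nitrogen-limited reference, 140.9 to 148.7 in the carbon-limited deletion and 174.4 to 220.1 in the carbon-limited reference. MF(ALPHA)1 read 270.0 to 356.6 in the nitrogen-limited reference and 17.9 to 47.4 elsewhere, while MF(ALPHA)2 stayed at 3.5 to 10.6. STE3 was highest in the carbon-limited reference (25.3 to 36.4, against 19.6 to 20.7 in the nitrogen-limited reference). SAG1 read 127.3 to 146.3 in the nitrogen-limited reference, within the range of the carbon-limited reference (121.1 to 164.5). The part of these differences in the strain effects below was not tested directly. Fits were run without the arrays that stand apart, and with the actin ratio as a covariate. For the carriers and the other genes given with a call, they are named where they end it. Genes named only for a profile similar to a carrier's, and ATP20, YBL029C-A and AAC3, were not checked in this way. The actin ratio did not overlap between strains, so the covariate cannot be fully separated from strain. Some calls lost with it had a smaller change and others a larger one. Whether the ratio accounts for a lost call was not tested.

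Values are linear intensities that the authors scaled to a common trimmed mean. Each probe set has its own response, so levels are compared between groups for a gene and not between genes. Changes are log2 differences of group means, with values under 12 raised to 12, and are given ± SE from 1 limma model over 5321 genes. A gene passed at a Benjamini-Hochberg adjusted p under 0.05 over those genes. All 10 carriers were tested, and their lowest value on any array was 29.4.

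The dicarboxylate carrier gene DIC1 changed with strain and with limitation, and the 2-oxodicarboxylate carrier gene ODC1 with limitation. In the nitrogen-limited cultures, DIC1 fell 2.41-fold and ODC2 1.51-fold in the deletion strain, AGC1 fell 1.37-fold, and the GTP carrier gene GGC1 rose 1.95-fold. In the carbon-limited cultures the deletion strain had 1.43-fold higher DIC1 and 1.45-fold lower PET9. Of 22 alternative fits, given with each gene below, 3 ended this DIC1 call and 5 this PET9 call. The nitrogen-limited calls of AGC1 and ODC2 were lost under 5 and 1 of them. Nitrogen-limited glucose cultures had lower ODC1, MIR1 and DIC1 than carbon-limited ethanol cultures in both strains. In the deletion strain the size of that fall reached 5.43-fold for DIC1 and 4.7-fold for ODC1. The fall of DIC1 in the reference was lost under 2 of the 22 alternatives.

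**Figure D1:**
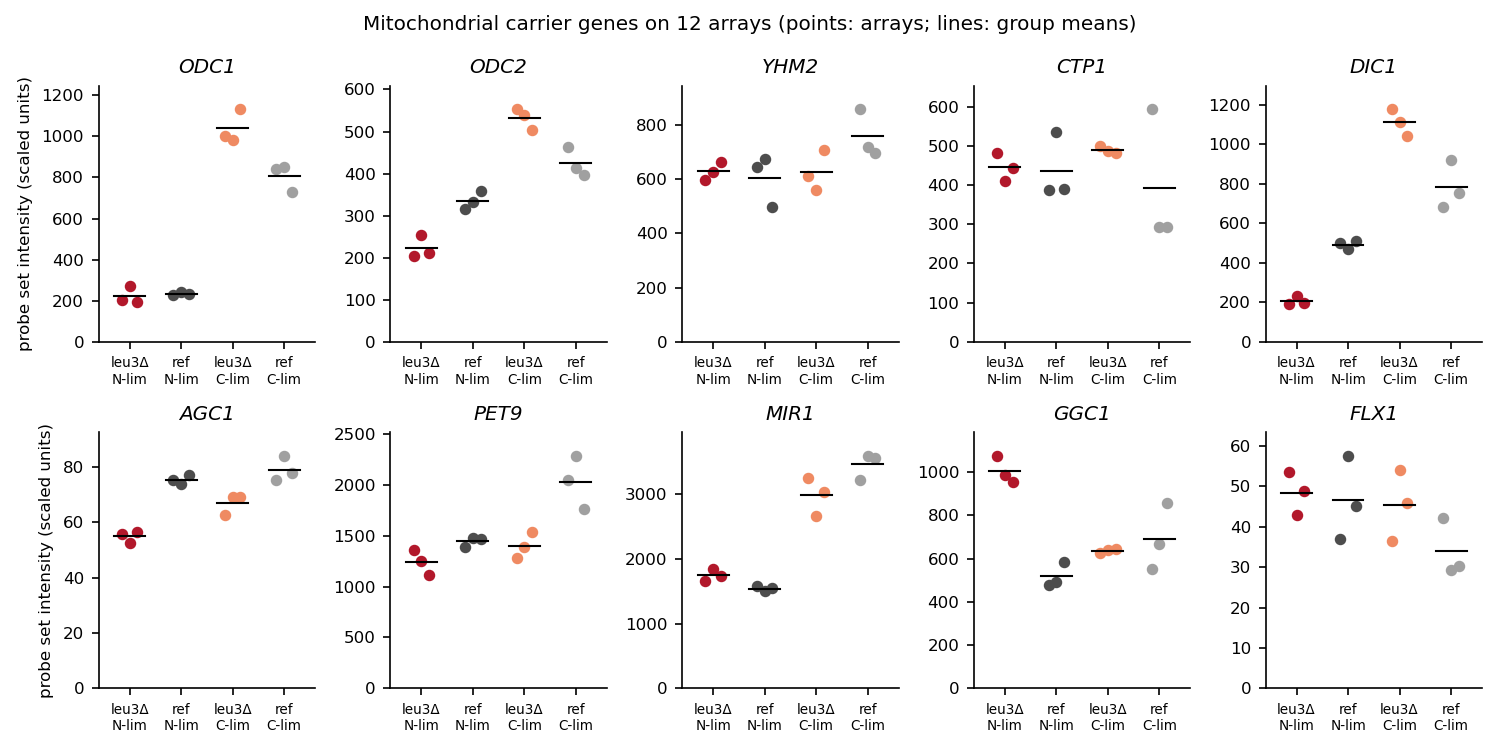
Probe set intensity (y axis, linear scaled units from 0, with its own range for each gene) of each of the 10 carrier genes on all 12 arrays, by group (x axis); points are arrays and lines are group means, with n = 3. DIC1 averaged 205.1 in the nitrogen-limited deletion strain, 492.8 in the nitrogen-limited reference, 1111.8 in the carbon-limited deletion strain and 785.2 in the carbon-limited reference.

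DIC1 encodes the dicarboxylate carrier, which exchanges malate or succinate for phosphate. Its intensity was 190.6, 230.5 and 194.2 in the nitrogen-limited deletion strain and 498.0, 467.6 and 512.8 in the nitrogen-limited reference. It was 1177.8, 1113.2 and 1044.5 in the carbon-limited deletion strain and 681.9, 918.8 and 754.8 in the carbon-limited reference. No pair of groups overlapped, and the deletion strain held both the lowest and the highest group. The strain effect was -1.27 ± 0.15 under nitrogen limitation (limma adjusted p = 2.16e-05), and 2.5% of tested genes had a larger change. Under carbon limitation it was 0.51 ± 0.15 (limma adjusted p = 0.0178). The opposite signs were tested as an interaction, nitrogen-limited minus carbon-limited strain effect, which was -1.78 ± 0.21 (limma adjusted p = 6.75e-05), 25th among the decreases of all tested genes. The limitation effect was -2.44 ± 0.15 in the deletion strain (limma adjusted p = 2.22e-09) and -0.66 ± 0.15 in the reference (limma adjusted p = 0.00178). The rise in the carbon-limited deletion strain was lost without carbon-limited deletion array 1 (0.47, adjusted p = 0.0641), with each array centred on its median (0.35, adjusted p = 0.093) and with the actin covariate (0.71, adjusted p = 0.237). The fall in the reference was lost with that covariate (-0.52, adjusted p = 0.0915) and without carbon-limited reference arrays 2 and 3 (-0.47, adjusted p = 0.0536).

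ODC1 and ODC2 encode a pair of related 2-oxodicarboxylate carriers that export 2-oxoglutarate and 2-oxoadipate, precursors of glutamate and lysine. ODC1 read 202.3, 273.7 and 193.7 in the nitrogen-limited deletion strain and 228.1, 240.5 and 231.6 in the nitrogen-limited reference. In carbon-limited cultures it read 1000.3, 983.9 and 1131.7 in the deletion strain and 841.1, 849.6 and 727.1 in the reference. Every nitrogen-limited array was below every carbon-limited one, and the strains overlapped only under nitrogen limitation. The limitation effect on ODC1 was -2.23 ± 0.15 in the deletion strain (limma adjusted p = 1.09e-08) and -1.78 ± 0.15 in the reference (adjusted p = 1.68e-07). Its strain effects did not pass, at -0.08 under nitrogen limitation (95% interval -0.40 to 0.24, adjusted p = 0.747) and 0.37 under carbon limitation (0.04 to 0.69, adjusted p = 0.0825), nor did their difference (-0.45, adjusted p = 0.156).

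ODC2 read 204.2, 253.2 and 211.1 in the nitrogen-limited deletion strain and 316.1, 331.3 and 358.5 in the nitrogen-limited reference. Carbon-limited cultures gave 553.0, 539.4 and 504.3 in the deletion strain and 464.0, 412.5 and 397.7 in the reference. The 4 groups did not overlap, and as for DIC1 the deletion strain was the lowest under nitrogen limitation and the highest under carbon limitation. The strain effect was -0.59 ± 0.14 under nitrogen limitation (limma adjusted p = 0.00611) and 0.33 ± 0.14 under carbon limitation, which did not pass (adjusted p = 0.0855). The second passed without the filter on low values (adjusted p = 0.0331) and without carbon-limited reference array 1 (0.39, adjusted p = 0.0472). The strain effects differed, with an interaction of -0.92 ± 0.19 (limma adjusted p = 0.00573). The limitation effect was -1.26 ± 0.14 in the deletion strain (adjusted p = 2.89e-06), whereas -0.34 ± 0.14 in the reference did not pass (adjusted p = 0.052). The strain effect under nitrogen limitation was lost without nitrogen-limited reference arrays 2 and 3 (-0.51, adjusted p = 0.107), and the interaction with the actin covariate (-0.78, adjusted p = 0.0536). The -0.34 in the reference passed without the filter on low values (adjusted p = 0.0168), with median centring (-0.61, adjusted p = 0.00171), quantile normalization (-0.45, adjusted p = 0.0122), averaged probe sets (adjusted p = 0.0462) or a mean-variance trend (adjusted p = 0.0387). The filter, averaged probe sets and the trend leave a carrier's change as it was, because each carrier has 1 probe set. They alter its adjusted p only through the spread estimate and adjustment shared with other genes.

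The pair was also compared within each array, as log2 ODC1 minus log2 ODC2, a quantity whose differences between groups show unequal change. It was -0.01, 0.11 and -0.12 in the nitrogen-limited deletion strain and -0.47, -0.46 and -0.63 in the nitrogen-limited reference. It was 0.86, 0.87 and 1.17 in the carbon-limited deletion strain and 0.86, 1.04 and 0.87 in the carbon-limited reference. All carbon-limited arrays lay above all nitrogen-limited ones, and the strains separated only under nitrogen limitation. The limitation effect on the difference averaged -1.21, with -0.97 in the deletion strain and -1.44 in the reference (exact permutation within strains, two-sided p = 0.005, the smallest of 400 arrangements, 0.01 adjusted over 2 tests). The strain effect averaged 0.28, with 0.51 under nitrogen and 0.04 under carbon limitation (exact permutation p = 0.045, also 0.045 adjusted). The strain effect kept its sign without each single array (0.23 to 0.31), but p rose above 0.05 in 8 of those 12 tests.

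**Figure D2:**
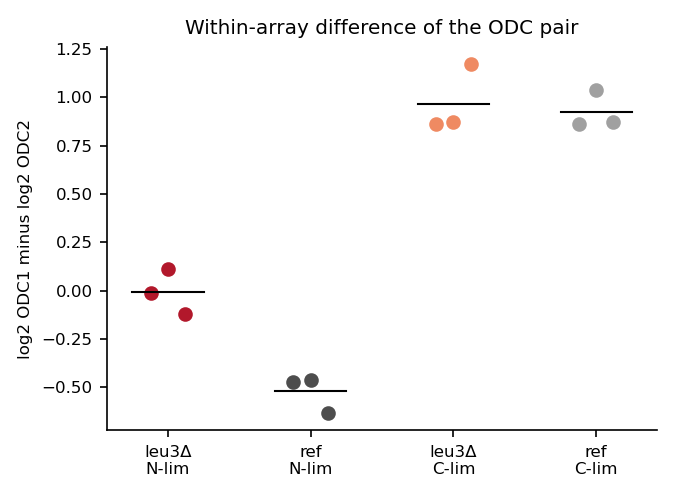
Within-array difference of log2 ODC1 and log2 ODC2 (y axis, log2 units) on the 12 arrays by group (x axis); points are arrays and lines are group means, with n = 3. The carbon-limited arrays sit between 0.86 and 1.17, the nitrogen-limited deletion arrays between -0.12 and 0.11, and the nitrogen-limited reference arrays between -0.63 and -0.46.

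Citrate leaves the matrix through CTP1, the citrate transport protein, and through YHM2, which exchanges citrate for 2-oxoglutarate. CTP1 read 482.6, 409.9 and 443.1 in the nitrogen-limited deletion strain and 386.6, 534.9 and 389.0 in the nitrogen-limited reference. In carbon-limited cultures it read 500.1, 486.0 and 482.6 in the deletion strain and 593.4, 293.2 and 293.4 in the reference. The groups overlapped, and in carbon-limited cultures reference array 1 was above all 3 deletion arrays while the other reference arrays were below them. None of its effects passed: 0.04 (adjusted p = 0.931) and 0.40 (adjusted p = 0.204) between strains under nitrogen and carbon limitation, and -0.14 (adjusted p = 0.674) and 0.22 (adjusted p = 0.447) between limitations in the deletion strain and the reference. Without carbon-limited reference array 1, the carbon-limited strain effect was 0.74 (adjusted p = 0.00326), the interaction -0.70 (adjusted p = 0.0296) and the limitation effect in the reference 0.56 (adjusted p = 0.0106). Without arrays 2 and 3 of that group, the carbon-limited strain effect had the other sign, at -0.28. YHM2 averaged 629.1 ± 32.5 and 604.7 ± 93.4 in the nitrogen-limited deletion strain and reference, and 626.1 ± 73.6 and 757.1 ± 87.1 in the carbon-limited deletion strain and reference (SD, n = 3 each). Its effects between strains (0.07 under nitrogen and -0.27 under carbon limitation) and between limitations (0.01 in the deletion strain and -0.33 in the reference) did not pass (adjusted p = 0.797, 0.199, 0.964 and 0.0908). With median centring, -0.44 between strains under carbon limitation and -0.60 between limitations in the reference did pass (adjusted p = 0.0452 and 0.00596).

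AGC1 encodes the aspartate-glutamate carrier of the malate-aspartate NADH shuttle. It read 55.8, 52.5 and 56.7 in the nitrogen-limited deletion strain and 75.5, 73.8 and 77.1 in the nitrogen-limited reference. Under carbon limitation the intensities were 62.5, 69.1 and 69.2 in the deletion strain and 75.3, 84.1 and 77.7 in the reference. The deletion strain was below the reference without overlap under both limitations. The strain effect passed under nitrogen limitation (-0.46 ± 0.12, limma adjusted p = 0.0162) and not under carbon limitation (-0.24 ± 0.12, adjusted p = 0.163), and the interaction did not pass (-0.22, adjusted p = 0.406). The nitrogen-limited call was lost without deletion array 2 (-0.42, adjusted p = 0.0525), without reference array 3 (-0.44, adjusted p = 0.0549) and without reference arrays 2 and 3 (-0.46, adjusted p = 0.111). It was also lost with median centring (-0.32, adjusted p = 0.104) and quantile normalization (-0.34, adjusted p = 0.0639). The carbon-limited effect passed without the filter on low values (adjusted p = 0.0168) and with median centring (-0.41, adjusted p = 0.0314). Between limitations AGC1 did not pass, at -0.28 in the deletion strain (adjusted p = 0.0905) and -0.07 in the reference (adjusted p = 0.692). The first passed without the filter (adjusted p = 0.00513) and without carbon-limited reference arrays 2 and 3 (adjusted p = 0.0495).

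PET9 encodes the main ADP/ATP carrier and MIR1 the phosphate carrier, which between them supply the substrates of the ATP synthase. PET9 read 1360.5, 1247.9 and 1116.5 in the nitrogen-limited deletion strain and 1391.0, 1476.7 and 1467.1 in the nitrogen-limited reference. In carbon-limited cultures it read 1278.3, 1393.0 and 1536.0 in the deletion strain and 2045.2, 2287.3 and 1766.7 in the reference. The carbon-limited reference was the highest group and overlapped no other. PET9 was lower in the carbon-limited deletion strain (-0.53 ± 0.14, limma adjusted p = 0.0133), and in the reference it was lower under nitrogen limitation (-0.49 ± 0.14, adjusted p = 0.0117). Its strain effect under nitrogen limitation (-0.22, adjusted p = 0.287) and its limitation effect in the deletion strain (-0.18, adjusted p = 0.366) did not pass. The interaction of 0.31 did not pass either (adjusted p = 0.301), although it did with median centring (0.62, adjusted p = 0.0474). The carbon-limited strain effect was lost with quantile normalization (-0.33, adjusted p = 0.105), with the actin covariate (-0.66, adjusted p = 0.277), without carbon-limited reference arrays 2 and 3 (-0.55, adjusted p = 0.0784), without reference array 2 (-0.44, adjusted p = 0.0523) and without deletion array 1 (-0.47, adjusted p = 0.0579). The limitation effect in the reference was lost with quantile normalization (-0.16, adjusted p = 0.391), with the actin covariate (-0.58, adjusted p = 0.0605), without nitrogen-limited reference arrays 2 and 3 (-0.54, adjusted p = 0.0739) and without carbon-limited reference array 2 (-0.40, adjusted p = 0.0507).

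MIR1 read 1650.7, 1847.6 and 1736.2 in the nitrogen-limited deletion strain and 1581.7, 1499.5 and 1543.1 in the nitrogen-limited reference. The carbon-limited arrays gave 3243.9, 2664.0 and 3035.1 in the deletion strain and 3222.5, 3591.4 and 3559.4 in the reference. All carbon-limited arrays lay above all nitrogen-limited ones. MIR1 fell under nitrogen limitation by 0.77 ± 0.13 on the log2 scale in the deletion strain (limma adjusted p = 0.000283) and by 1.16 ± 0.13 in the reference (adjusted p = 4.02e-06). In the reference the change was -0.70 with quantile normalization, still past the threshold. The strain effects of 0.18 and -0.22 under nitrogen and carbon limitation did not pass (adjusted p = 0.359 and 0.229), and the second was 0.23 with quantile normalization. The interaction of 0.39 did not pass (adjusted p = 0.148), although it did without the filter on low values (adjusted p = 0.0413) and with median centring (0.70, adjusted p = 0.0245).

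GGC1 encodes the GTP/GDP carrier, which brings GTP into the matrix and is needed for the mitochondrial genome and for iron balance. It read 1076.1, 988.0 and 956.2 in the nitrogen-limited deletion strain and 477.5, 491.1 and 583.7 in the nitrogen-limited reference. In carbon-limited cultures it read 627.8, 638.6 and 646.4 in the deletion strain and 551.3, 666.3 and 859.0 in the reference. The nitrogen-limited deletion strain stood above every array of the other groups, and the carbon-limited groups overlapped. The strain effect was 0.96 ± 0.16 under nitrogen limitation (limma adjusted p = 0.000586) and -0.09 ± 0.16 under carbon limitation (adjusted p = 0.699). The interaction passed, at 1.06 ± 0.23 (limma adjusted p = 0.00631), but not with the actin covariate (0.65, adjusted p = 0.0881). Between limitations GGC1 rose by 0.66 ± 0.16 under nitrogen limitation in the deletion strain (adjusted p = 0.00482), and -0.40 ± 0.16 in the reference did not pass (adjusted p = 0.0511). That value in the reference passed with a mean-variance trend (adjusted p = 0.033), averaged probe sets (adjusted p = 0.0486), no filter on low values (adjusted p = 0.0498) or median centring (-0.67, adjusted p = 0.00522), and was 0.03 with the actin covariate. FLX1, a gene needed for FAD transport into the matrix, averaged 48.4 ± 5.3 and 46.6 ± 10.4 in the nitrogen-limited deletion strain and reference, and 45.5 ± 8.8 and 33.9 ± 7.2 in the carbon-limited deletion strain and reference (SD, n = 3 each). Neither its strain effects (0.07 and 0.42 under nitrogen and carbon limitation, adjusted p = 0.835 and 0.126) nor its limitation effects (0.10 in the deletion strain and 0.45 in the reference, adjusted p = 0.727 and 0.0735) passed. Without carbon-limited reference array 1, the carbon-limited strain effect was 0.59 (adjusted p = 0.0354) and the limitation effect in the reference 0.62 (adjusted p = 0.0201).

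**Figure D3:**
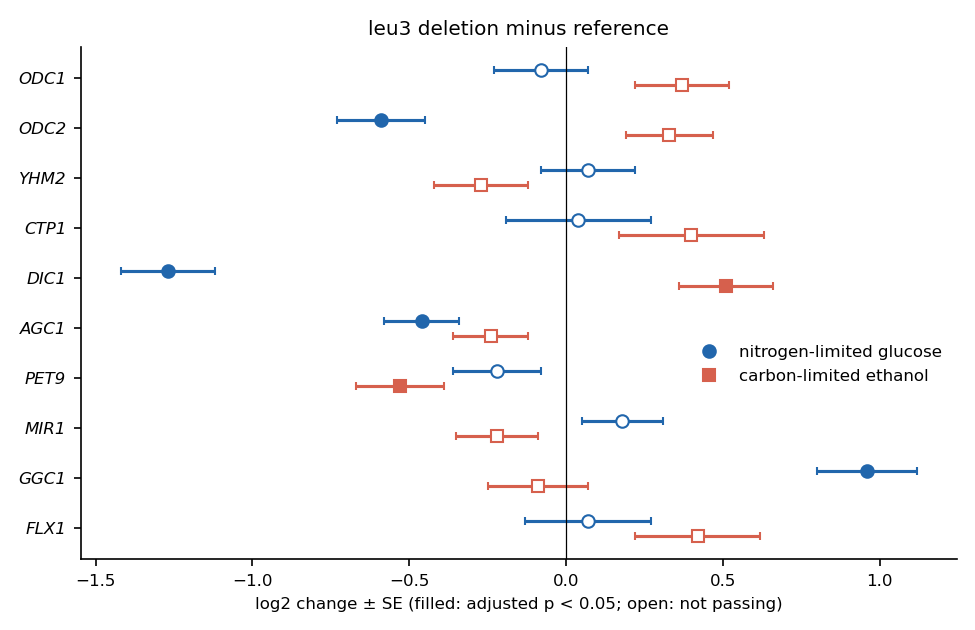
Strain effect on each carrier (x axis, log2 change, leu3 deletion minus reference, ± SE from limma with n = 3 per group) under nitrogen limitation (circles) and carbon limitation (squares); filled symbols have an adjusted p under 0.05. DIC1 moves in opposite directions under the limitations, at -1.27 and 0.51, and GGC1 stands at 0.96 under nitrogen limitation.

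Counted over the 10 carriers, 1 rose, 3 fell and 6 did not pass between strains under nitrogen limitation, where 6.05% of all tested genes rose and 16.1% fell. Under carbon limitation 1 rose, 1 fell and 8 did not pass, against 17.4% and 10.7% of all genes, so the share of carriers that rose or fell there was no larger than that of all genes. The interaction was positive for 1, negative for 2 and did not pass for 7 carriers, against 5.24% and 13.1% of all genes. Medians over the carriers were -0.02 under nitrogen limitation, 0.12 under carbon limitation and -0.28 for the interaction, and those over all tested genes were -0.11, 0.05 and -0.20. Centring each array on its median moved the median of all genes to 0.04 under nitrogen and -0.12 under carbon limitation. It also turned the balance of calls. Under nitrogen limitation 10.1% of genes were then higher and 9.11% lower, with 1 carrier higher and 2 lower. Under carbon limitation 10.1% were higher and 18.7% lower, with 0 carriers higher and 3 lower, and for the interaction 11.5% were higher and 4.53% lower, with 3 carriers higher and 2 lower.

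Between limitations, the deletion strain had 1 carrier higher, 4 lower and 5 that did not pass, where 18.1% of all tested genes were higher under nitrogen limitation and 17.8% lower. In the reference 0 were higher, 4 lower and 6 did not pass, against 32.6% and 14.9% of all genes. At an unadjusted p under 0.05, 6 carriers in the deletion strain and 8 in the reference were counted, against 44.8% and 54.7% of all tested genes, and 4 carriers in each strain effect and in the interaction, against 34.6%, 39.9% and 33.6%. The carriers' median was -0.23 in the deletion strain and -0.37 in the reference, against 0.02 and 0.19 over all genes. With median centring, the median of all genes in the reference was -0.07, 17.9% of genes were higher and 25.7% lower, and 7 carriers were lower. The limitation effects share their arrays with the strain effects and the interaction, and so are not independent of them.

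**Figure D4:**
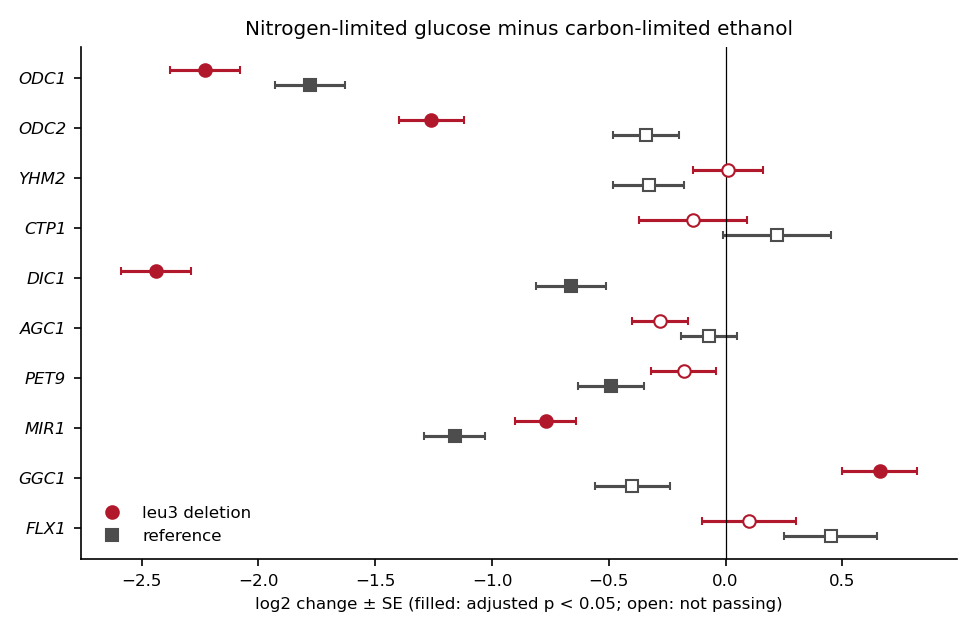
Limitation effect on each carrier (x axis, log2 change, nitrogen-limited minus carbon-limited, ± SE from limma with n = 3 per group) in the leu3 deletion (circles) and the reference (squares); filled symbols have an adjusted p under 0.05. DIC1 (-2.44 and -0.66 in the deletion strain and reference) and ODC1 (-2.23 and -1.78) lie farthest to the left in the deletion strain.

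For each carrier, the genes outside the 10 with the most similar profile were taken by Pearson correlation of log2 values over the 12 arrays. A closer match within the 10 is therefore not shown. The ranking is a description of arrays that share 4 group means. DIC1 was most like ATG7, an autophagy gene (r = 0.984), and AAC1, a minor ADP/ATP carrier (r = 0.978). ODC1 was most like SIP2, a subunit of the Snf1 kinase (r = 0.99), and CIT3, a mitochondrial citrate synthase (r = 0.989). ODC2 was most like UBC8, a ubiquitin-conjugating enzyme (r = 0.985), and DIA4, a probable mitochondrial seryl-tRNA synthetase (r = 0.971). MIR1 was most like MPC3, a pyruvate carrier subunit (r = 0.988), and SIP4, a regulator of gluconeogenesis (r = 0.986). The limitation effect on SIP2 was -3.66 in the deletion strain and -2.70 in the reference. CIT3 and SIP4 lay under 12 on all 3 nitrogen-limited reference arrays. PET9 was most like SHM1, the mitochondrial serine hydroxymethyltransferase (r = 0.955), and INH1, an ATP synthase inhibitor (r = 0.934). AGC1 was most like PIB1, a ubiquitin ligase (r = 0.959), and LEU1, isopropylmalate isomerase of leucine synthesis (r = 0.946). GGC1 was most like ADH5, an alcohol dehydrogenase (r = 0.939), and CAR1, arginase (r = 0.915). CTP1 (NIP7 0.91, DBP9 0.904), FLX1 (UTP25 0.91, LST7 0.905) and YHM2 (YNCK0019W 0.835, HPF1 0.796) had looser matches.

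Of 22 other genes of the carrier family, 3 rose and 4 fell in the deletion strain under nitrogen limitation and 10 rose and 1 fell under carbon limitation, against 6.05% and 16.1% of all tested genes under nitrogen limitation and 17.4% and 10.7% under carbon limitation. ORT1, the ornithine carrier of arginine synthesis, read 357.1 to 413.1 in the nitrogen-limited deletion strain and 130.6 to 151.5 in the nitrogen-limited reference (1.42 ± 0.14, limma adjusted p = 5.62e-06). YMC2 was also higher there (0.93, adjusted p = 0.00356). AAC1 was lower (-1.09, adjusted p = 0.000608), as was PIC2, a copper and phosphate carrier (-0.78, adjusted p = 0.0288). PIC2 lost that call under 8 of 22 alternatives, among them without deletion array 1 or 3 or reference array 1 or 3. Under carbon limitation SAL1, a calcium-binding ATP-Mg/phosphate carrier, rose by 1.23 (adjusted p = 0.000939), and CRC1, the carnitine carrier, by 0.98 (adjusted p = 0.00189). With the actin covariate both stood at 0.27 and did not pass (adjusted p = 0.702 and 0.724). In that fit 0 of the 22 genes were higher and 1 lower, against 16 and 38 of all 5321 tested genes. Without carbon-limited reference arrays 2 and 3, CRC1 was 0.52 and lost its call as well. OAC1, the oxaloacetate and isopropylmalate carrier, was the gene that fell under carbon limitation (-1.21, adjusted p = 0.000268). This OAC1 effect passed under all 22 alternatives. The interaction was positive for ORT1 (0.84, adjusted p = 0.0104) and YMC1 (0.57, adjusted p = 0.0466) and negative for 4 genes, with AAC1 at -1.36 (adjusted p = 0.00333) and YIA6, a NAD+ carrier, at -1.05 (adjusted p = 0.036). The AAC1 interaction passed under all 22 alternatives. That of ORT1 was lost with the actin covariate (0.60, adjusted p = 0.111) and without carbon-limited reference arrays 2 and 3 (0.61, adjusted p = 0.066), and those of YMC1 and YIA6 were lost without 10 and 9 of the 12 single arrays. AAC1 thus shared with DIC1 a fall in the nitrogen-limited deletion strain, while its carbon-limited strain effect of 0.27 did not pass (adjusted p = 0.285).

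Between limitations, the deletion strain had 7 of the 22 higher and 6 lower, against 18.1% and 17.8% of all tested genes, and the reference had 9 higher and 3 lower, against 32.6% and 14.9%. With median centring the reference had 7 higher and 7 lower, against 17.9% and 25.7% of all genes. SFC1, which imports succinate in exchange for fumarate, lay under 12 on all nitrogen-limited arrays, against 1136.4 to 1501.7 in the carbon-limited deletion strain and 980.6 to 1147.7 in the carbon-limited reference. On nitrogen-limited glucose it was therefore at least 109.88-fold lower in the deletion strain and at least 89.04-fold lower in the reference (limma adjusted p = 9.02e-15 and 6.4e-15). CRC1 was lower too, with log2 changes of -5.30 in the deletion strain and -4.74 in the reference (adjusted p = 3.34e-12 and 1.17e-11). Higher under nitrogen limitation were PIC2 (1.52 in the deletion strain and 2.35 in the reference, adjusted p = 0.000139 and 1.31e-06), OAC1, the oxaloacetate and isopropylmalate carrier, in the deletion strain (1.39, adjusted p = 1.16e-05), and MRS4, an iron carrier, in the reference (1.68, adjusted p = 1.54e-05). These 5 genes passed under all 22 alternatives in the comparisons named. The family thus held members far lower and members higher on glucose than the 10 carriers.

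**Figure D5:**
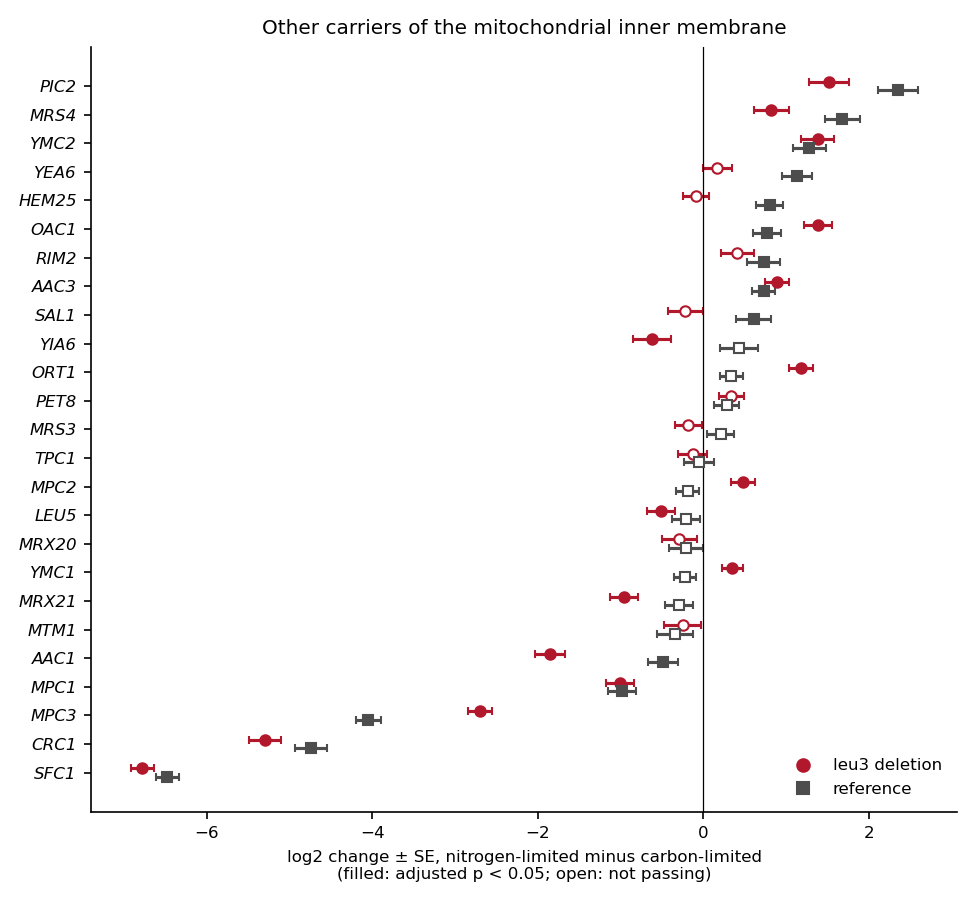
Limitation effect (x axis, log2 change, nitrogen-limited minus carbon-limited, ± SE from limma with n = 3 per group) on 22 other carrier family genes and 3 pyruvate carrier genes in the leu3 deletion (circles) and the reference (squares); filled symbols have an adjusted p under 0.05. SFC1 was under 12 on all nitrogen-limited arrays, so its points are lower bounds of the size of the change; AAC3 was under 12 on all carbon-limited deletion arrays.

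The mitochondrial pyruvate carrier is built from MPC1 with either MPC2, the form used in fermenting cells, or MPC3, the form used in respiring cells. MPC3 read 210.8 to 251.6 in the nitrogen-limited deletion strain and 147.8 to 166.3 in the nitrogen-limited reference, against 1434.5 to 1653.0 in the carbon-limited deletion strain and 2242.7 to 2984.0 in the carbon-limited reference. The deletion strain was above the reference under nitrogen limitation (0.60, adjusted p = 0.00799) and below it under carbon limitation (-0.74, adjusted p = 0.00232), with an interaction of 1.34 ± 0.21 (limma adjusted p = 0.00064). The signs were the reverse of those of DIC1, and the interaction passed under all 22 alternatives. The strain effect was lost under nitrogen limitation without reference arrays 2 and 3 (0.51, adjusted p = 0.137), and under carbon limitation with the actin covariate (-0.56, adjusted p = 0.372) and without reference arrays 2 and 3 (-0.54, adjusted p = 0.0784). Between limitations MPC3 changed by -2.70 in the deletion strain and -4.05 in the reference (adjusted p = 6.02e-10 and 3.71e-12). MPC2 rose in the nitrogen-limited deletion strain (0.63, adjusted p = 0.00477), with an interaction of 0.66 (adjusted p = 0.0308). The first was lost without nitrogen-limited reference arrays 2 and 3 (0.62, adjusted p = 0.0673) and the second without 7 of the 12 single arrays. MPC1 fell under nitrogen limitation in both strains (-1.01 and -0.98 in the deletion strain and reference, adjusted p = 0.000231 and 0.00024). Carrier proteins are inserted into the inner membrane through the TIM22 complex, and TIM22 itself was higher in the deletion strain under nitrogen limitation (0.56, adjusted p = 0.016) and under carbon limitation (0.65, adjusted p = 0.00585). Of the 7 genes of that route, 2 rose under nitrogen limitation (TIM22 and TIM54) and 3 under carbon limitation (those and TIM12), and none fell, against 6.05% higher and 16.1% lower of all tested genes under nitrogen and 17.4% and 10.7% under carbon limitation. None of these calls held with the actin covariate or without arrays 2 and 3 of the reference in that limitation. TIM22 then stood at 0.47 and 0.61 under nitrogen limitation (adjusted p = 0.052 and 0.0989) and at 0.36 and 0.50 under carbon limitation (adjusted p = 0.615 and 0.154). With median centring, 1 of the 7 was higher and 1 lower under carbon limitation, against 10.1% and 18.7% of all genes. Without single arrays, TIM22 lost its nitrogen-limited call without deletion array 2 or reference array 1. TIM54 lost its own there without deletion array 1 or 3 or any reference array, and TIM12 lost its carbon-limited call without deletion array 1 or 2 or reference array 1. Under nitrogen rather than carbon limitation, 18.1% of all genes rose and 17.8% fell in the deletion strain, against 32.6% and 14.9% in the reference. Of the 7, only TIM22 passed, higher by 0.51 in the deletion strain and 0.61 in the reference (adjusted p = 0.0152 and 0.00405). The first was lost without nitrogen-limited deletion array 2 (0.40, adjusted p = 0.071) or carbon-limited deletion array 1 (0.43, adjusted p = 0.0741), and the second with median centring (0.35, adjusted p = 0.0634), with the covariate (0.40, adjusted p = 0.195) and without reference arrays 2 and 3 of either limitation (0.46 and 0.56, adjusted p = 0.103 and 0.0805).

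Enzymes that make and use the carriers' substrates were counted in the same way. Of 8 matrix enzymes of citrate and 2-oxoglutarate, the deletion strain had 1 higher and 7 lower under nitrogen limitation, against 18.1% and 17.8% of all tested genes. The reference had 0 higher and 6 lower, against 32.6% and 14.9%, and with median centring 8 were lower, against 25.7%. KGD1, a 2-oxoglutarate dehydrogenase subunit, changed by -1.88 in the deletion strain and -1.55 in the reference (adjusted p = 5.67e-08 and 5.29e-07). IDP1, the mitochondrial NADP-dependent isocitrate dehydrogenase, was the higher one. It read 553.6 to 584.3 in the nitrogen-limited deletion strain and 288.6 to 346.5 in the nitrogen-limited reference, against 120.5 to 149.4 in the carbon-limited deletion strain and 312.4 to 428.8 in the carbon-limited reference. Its strain effect was 0.85 under nitrogen limitation (adjusted p = 0.00114) and -1.46 under carbon limitation (adjusted p = 3.42e-05), with an interaction of 2.30 ± 0.22 (limma adjusted p = 9.82e-06). All 3 passed under all 22 alternatives. Aconitase, ACO1, had the signs of DIC1 in the deletion strain: -0.53 under nitrogen limitation (adjusted p = 0.0158), 0.54 under carbon limitation (adjusted p = 0.0129) and an interaction of -1.06 (adjusted p = 0.00333), which passed under all 22 alternatives. Its nitrogen-limited strain effect was lost with median centring (-0.39, adjusted p = 0.0758), without deletion array 2 (-0.48, adjusted p = 0.0567) and without reference array 1 (-0.40, adjusted p = 0.0812). Its carbon-limited one was lost with median centring (0.37, adjusted p = 0.0687), with the actin covariate (0.30, adjusted p = 0.665) and without reference arrays 2 and 3 (0.39, adjusted p = 0.219). Between strains, 1 of the 8 rose and 1 fell under nitrogen limitation, against 6.05% and 16.1% of all genes, and 2 rose and 2 fell under carbon limitation, against 17.4% and 10.7%. With the covariate the carbon-limited counts were 0 and 1, against 16 and 38 of all 5321 tested genes.

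Of 6 genes that use or make 2-oxoglutarate outside the matrix, for nitrogen assimilation and lysine synthesis, 2 rose and 1 fell between strains under nitrogen limitation and 0 rose and 2 fell under carbon limitation, against 6.05% and 16.1%, and 17.4% and 10.7%, of all genes. With the actin covariate 0 of the 6 passed under carbon limitation, against 54 of all 5321 tested genes. GDH3, a glutamate dehydrogenase, rose by 1.08 (adjusted p = 0.00137) and LYS20, a homocitrate synthase, by 0.89 (adjusted p = 0.00102) in the nitrogen-limited deletion strain. IDP2, the cytosolic isocitrate dehydrogenase, fell there (-0.63, adjusted p = 0.0086). These 3 passed under all 22 alternatives. The interaction was positive for 3 and negative for 1 of the 6, against 5.24% and 13.1% of all genes. With the covariate it was positive for 1 and negative for 0, against 148 and 269 of all 5321 tested genes. Between limitations, where the all-gene shares were 18.1% higher and 17.8% lower for the deletion strain, and 32.6% and 14.9% for the reference, the deletion strain had 1 higher and 2 lower and the reference had 4 lower, led by IDP2 (-5.05 and -4.38 in the deletion strain and reference, adjusted p = 5.26e-13 and 2.47e-12). Of 4 malate-aspartate enzymes, MDH2, the cytosolic malate dehydrogenase of gluconeogenesis, fell in the nitrogen-limited deletion strain (-0.97, adjusted p = 0.000885) and AAT2 rose (0.48, adjusted p = 0.0349), and none passed between strains under carbon limitation. The MDH2 effect passed under all 22 alternatives, and AAT2 lost its call under 6, among them without any single deletion array and without reference array 2 or 3. Between limitations 2 were lower in the deletion strain and 3 in the reference, with MDH2 at -5.35 and -4.69 (adjusted p = 9.81e-13 and 3.98e-12).

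ATP synthase subunits, which use what PET9 and MIR1 bring in, were lower under nitrogen limitation in 10 of 12 cases in the deletion strain, where 17.8% of all tested genes were lower and 18.1% higher, and none was higher. In the reference 8 of 12 were lower and none was higher, against 14.9% and 32.6%. With median centring 12 of 12 were lower in the reference, against 25.7% of all genes. With the actin covariate 6 were lower there, against 466 of all 5321 tested genes. ATP4 changed by -1.05 in the deletion strain (adjusted p = 1.4e-05) and ATP15 by -1.13 in the reference (adjusted p = 2.57e-05). Between strains 1 of 12 was lower under nitrogen limitation, against 16.1% of all genes. Under carbon limitation 3 were lower and 1 higher, against 10.7% and 17.4%. ATP2 was lower there (-0.71, adjusted p = 0.00576), in the comparison in which PET9 was lower. With the actin covariate ATP2 did not pass (-0.94, adjusted p = 0.19), nor did any of the 12, against 54 of all 5321 tested genes that passed. Of 8 genes of flavin synthesis, which supplies the FAD that needs FLX1, 2 rose and 1 fell between strains under nitrogen limitation, against 6.05% and 16.1% of all genes, and 1 rose and 1 fell under carbon limitation, against 17.4% and 10.7%. RIB5, riboflavin synthase, rose in the nitrogen-limited deletion strain (1.20, adjusted p = 0.000608), and FAD1, FAD synthetase, fell (-0.45, adjusted p = 0.0246). RIB5 passed under all 22 alternatives, and FAD1 lost its call under 7, among them without deletion array 1 or 3 or reference array 1 or 3. Between limitations the deletion strain had 1 higher and 2 lower of these 8, against 18.1% and 17.8% of all genes, and the reference 1 lower, against 14.9%, RIB1 being lower in both (-0.98 and -0.92, adjusted p = 0.000725 and 0.000938).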

How the data were processed

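The deposited values are linear probe set intensities, scaled by the authors; the mean without the lowest and highest 2% of probe sets was 150.1 to 150.14 on every array. Not given in the sources used here are the scaling software, the background treatment and any detection calls. Of 9335 probe sets, 6504 had 1 gene, 328 several and 2503 none; the highest of several probe sets of a gene was kept (315 genes). Values under 12 were set to 12 and log2 was taken. Genes above 12 on at least 3 of 12 arrays entered a 4-group model in limma 3.58.1 (R 4.3.3, lmFit and eBayes, 8 residual degrees of freedom, two-sided tests), which was also tested on simulated data. The number of arrays limits the precision. Replicate numbers did not pair arrays: correlations of deviations between same-numbered arrays were -0.31 to -0.03, with 0 of 12 over 0.1. The carriers, the related lists and the rule for named genes were chosen with earlier results of these data known. The rule took all carriers and the 2 genes outside the 10 most correlated with each. It also took up to 2 genes of a list per contrast and direction. TIM12 was named after its values were seen. Chromosomal neighbours were read from RefSeq's annotation. No sequence or coordinate was used. The alternatives were another floor, no filter, median centring, quantile normalization, averaged probe sets, a mean-variance trend, the replicate block, the actin ratio as a covariate and fits without arrays; they were applied to the related genes after the data were seen.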

Additional observations from a re-analysis of the deposited data

Results flagged for a closer look

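The strain effect differed between the limitations for 3 of the 10 carriers, by the interaction term of the limma model. That term was positive for 1 and negative for 2 of them, against 5.24% and 13.1% of all tested genes. The nitrogen-limited strain effect minus the carbon-limited one was -1.78 for DIC1 (adjusted p = 6.75e-05), 1.06 for GGC1 (adjusted p = 0.00631) and -0.92 for ODC2 (adjusted p = 0.00573). With the actin covariate the GGC1 and ODC2 values were 0.65 and -0.78 and did not pass (limma adjusted p = 0.0881 and 0.0536).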

How the results depend on the processing

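Of the carrier values that passed, DIC1 and GGC1 between nitrogen-limited strains, the DIC1 interaction, all 5 limitation effects in the deletion strain, and MIR1 and ODC1 between limitations in the reference passed under every alternative run; the calls lost are given with each gene. In each fit without 2 arrays, the array left in that group is assumed to vary like the other groups, and leaving out nitrogen-limited reference arrays 2 and 3 was chosen after seeing the data. The cause of the changes below was not tested. Between nitrogen-limited strains, 1181 genes and 4 carriers passed. Without nitrogen-limited reference arrays 2 and 3, 715 genes and 2 carriers did. Without single arrays the ranges were 793 to 1389 genes and 3 to 4 carriers. Between carbon-limited strains, 1494 genes and 2 carriers passed, with 4 carriers without the filter, 1 with quantile normalization, 54 genes and 0 carriers with the actin covariate, and 338 genes and 1 carrier without carbon-limited reference arrays 2 and 3. Without single arrays the ranges were 1004 to 1852 genes and 0 to 5 carriers, with 0 carriers without deletion array 1, 5 without reference array 1 and 1 without reference array 2. For the interaction, 976 genes and 3 carriers passed, with 5 carriers under median centring, 417 genes and 1 carrier with the actin covariate, and 634 and 504 genes without the carbon-limited and the nitrogen-limited reference arrays 2 and 3. Without single arrays the ranges were 653 to 1411 genes and 3 to 4 carriers. Between limitations, 1907 genes and 5 carriers passed in the deletion strain (1436 to 2097 and 5 to 5 without single arrays). In the reference, 2532 genes and 4 carriers passed, with 7 carriers under median centring, 1289 genes and 2 carriers with the actin covariate, and 1556 and 1513 genes without the carbon-limited and the nitrogen-limited reference arrays 2 and 3. Without single arrays the ranges were 2148 to 2716 genes and 3 to 7 carriers, with 7 without carbon-limited reference array 1. The replicate block gave 1043, 1358, 857, 1787 and 2421 genes and changed no carrier count (4, 2, 3, 5 and 4). The strain effect on ODC1 minus ODC2 was 0.25 without nitrogen-limited reference arrays 2 and 3 (exact permutation p = 0.113) and 0.23 to 0.31 without single arrays.

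Among the 10 carriers, signs turned only for values that had not passed. Between nitrogen-limited strains, ODC1 was 0.06 with median centring, CTP1 -0.003 with quantile normalization, CTP1, FLX1 and YHM2 -0.27, -0.07 and -0.05 with the actin covariate, and YHM2 -0.03 without reference arrays 2 and 3. Between carbon-limited strains, MIR1 was 0.23 with quantile normalization, CTP1, FLX1 and GGC1 -0.61, -0.03 and 0.51 with the covariate, and CTP1 and GGC1 -0.28 and 0.21 without reference arrays 2 and 3. For the interaction, AGC1 was 0.09 with centring, MIR1 -0.14 with quantile normalization, and CTP1 0.34 with the covariate and 0.32 without carbon-limited reference arrays 2 and 3. Between limitations in the reference, CTP1 was -0.05 with centring, -0.50 with the covariate and -0.46 without carbon-limited arrays 2 and 3, GGC1 0.03 with the covariate and AGC1 0.003 without those arrays. Without single arrays, signs turned between nitrogen-limited strains for CTP1 (-0.04 to 0.20), FLX1 (-0.08 to 0.24), ODC1 (-0.24 to 0.01) and YHM2 (-0.07 to 0.15), between carbon-limited strains for GGC1 (-0.25 to 0.07), and between limitations in the deletion strain for FLX1 (-0.05 to 0.24) and YHM2 (-0.06 to 0.10).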

Other observations

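Of 17 tested genes that lie next to a carrier on the chromosome, YDL199C, a neighbour of GGC1, had the signs of GGC1 in all comparisons. So did RDS2 with ODC1, ATP20 with AGC1 and YBL029C-A with PET9, whether or not the values passed. The carbon-limited strain effect of GGC1 itself did not pass (-0.09, limma adjusted p = 0.699) and was 0.51 with the actin covariate. YDL199C was higher in the nitrogen-limited deletion strain (1.57, limma adjusted p = 0.000464) and lower in the carbon-limited one (-0.92, adjusted p = 0.0146). Its interaction was 2.49 (adjusted p = 0.000449). The carbon-limited call was lost under 5 of 22 alternatives, with -0.34 (adjusted p = 0.798) with the actin covariate and -0.45 (adjusted p = 0.443) without carbon-limited reference arrays 2 and 3, and also without carbon-limited deletion array 1 or 2 or reference array 2. RDS2, a regulator of gluconeogenesis next to ODC1, was lower under nitrogen limitation in the deletion strain (-1.12, adjusted p = 0.000172). In the reference it stood at -0.49 (adjusted p = 0.0355), a call lost under 10 of 22 alternatives, among them without each nitrogen-limited reference array and without carbon-limited reference array 1 or 3. These neighbours were singled out after their values were seen.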
